A study of Drosophila melanogaster with 3 samples.

Results

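Peaks of the transcription factor Spalt-related (Salr) that lie inside the introns of very long genes are described here. They were taken from the peaks that passed IDR, which scores how well replicates rank the same peaks, on the dm6 build. A peak was counted when its summit lay more than 1000 bp from every annotated transcription start site, in no exon, and inside at least 1 gene spanning 50 kb or more. The rule took 1022 of 6485 peaks, or 15.8% (Wilson 95% interval 14.9 to 16.7%). It used position alone and no measured value. The peaks came from 1 group of 3 biological replicates, each a ChIP-seq library from whole prepupae of both sexes whose exact age is not known. The animals were of a Drosophila melanogaster line carrying salr with GFP at its C-terminus, and the tagged protein was recovered with an anti-GFP antibody from chromatin sheared to 200 to 800 bp. Every replicate was called against a shared control alignment. No untagged animals were compared, and in whole animals a peak cannot be assigned to a tissue or cell type.

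Salr is a zinc-finger transcription factor of the Spalt family and a paralogue of Spalt major, and the pair act together in wing vein patterning, sensory organs and muscle. In flies the introns of long developmental genes commonly hold enhancers, stretches of DNA at which factors bind and act on a start site some distance away. Genes of the nervous system are also often long, so gene length alone does not define a functional class. A summit is the position of highest signal in a peak, and the signal value is the authors' own score, which has no stated scale and was used only to rank and describe peaks within a list.

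The strongest of these peaks show what the group consists of, and 5 of them are printed with 100 bp to each side of the summit, from the plus strand of Release 6 (dm6). In capitals are matches on either strand to 4 words. They include AATATT, an AT-rich word of the kind bound by the mouse family member Sall4, AAAAAAAA, and CACTGAGA, described further on. The other is a loose Mef2 pattern, CTA followed by TAG after any 4 bases. It is wider than the Mef2 site, so a match need not be a Mef2 site. The strongest lay at chr2L:480975-481175 in an intron of ush, which encodes a zinc-finger cofactor of GATA factors. The next lay at chr3L:2824097-2824297 in Tet, which encodes a dioxygenase of the family that oxidises methylated bases. A pair followed at chr3L:17611275-17611475 and chr3L:17611483-17611683 in Eip74EF, an ETS-domain factor induced early by the moulting hormone ecdysone. The last, at chr3L:2823011-2823211, is a further Tet peak. It is shown because it was the strongest of those that could be printed to hold the loose Mef2 pattern. It holds CACTGAGA as well. Letters alone do not show that a factor binds.
ush: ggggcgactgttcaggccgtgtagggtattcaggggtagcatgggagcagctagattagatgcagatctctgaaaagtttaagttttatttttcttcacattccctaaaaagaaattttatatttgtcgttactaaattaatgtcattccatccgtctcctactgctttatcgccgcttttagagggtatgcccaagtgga
Tet, first peak: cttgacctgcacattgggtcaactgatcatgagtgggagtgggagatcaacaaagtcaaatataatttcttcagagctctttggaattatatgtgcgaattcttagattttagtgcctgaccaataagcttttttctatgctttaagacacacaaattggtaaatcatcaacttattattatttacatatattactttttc
Eip74EF, first peak: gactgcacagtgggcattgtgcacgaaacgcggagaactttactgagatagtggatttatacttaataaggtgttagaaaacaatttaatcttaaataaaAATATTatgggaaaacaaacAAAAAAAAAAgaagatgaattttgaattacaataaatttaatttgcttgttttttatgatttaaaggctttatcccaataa
Eip74EF, second peak: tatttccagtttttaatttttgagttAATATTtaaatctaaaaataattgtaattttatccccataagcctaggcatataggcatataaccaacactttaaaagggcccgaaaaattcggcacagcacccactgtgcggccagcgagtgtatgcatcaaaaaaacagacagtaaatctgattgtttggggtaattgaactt
Tet, second peak: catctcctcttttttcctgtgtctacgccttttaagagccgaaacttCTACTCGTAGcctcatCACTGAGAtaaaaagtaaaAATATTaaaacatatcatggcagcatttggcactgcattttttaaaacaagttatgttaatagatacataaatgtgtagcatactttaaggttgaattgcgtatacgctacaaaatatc

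The ush peak had a signal value of 2035, the highest in the IDR list, and its summit had ranks of 2, 1 and 7 in replicates 1, 2 and 3. It lay 1387 bp from the nearest start site, that of the neighbouring zinc-finger gene cbt, inside an exon-free stretch of 9828 bp. Its printed sequence held none of the 4 words, and its GC content was 41.3%. The first Tet peak had a signal value of 1135 and ranks of 44, 36 and 42, and lay 3094 bp from a start site of Tet itself. The first Eip74EF peak had a signal value of 1013 and ranks of 24 and 72 in replicates 1 and 2. In replicate 3 it had no summit within 100 bp among all 30000 entries. Its neighbour had a signal value of 956 and ranks of 564, 97 and 156. Both lay in 1 exon-free stretch of 15267 bp, and their GC contents were 27.4% and 34.8%. The second Tet peak had a signal value of 651 and ranks of 239, 404 and 306.

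The 20 strongest intronic peaks lay in 14 genes. Their signal values ran from 637 to 2035, and 19 of the 20 were matched in all 3 replicates. The gene ush held 1 of them, Tet 2 and Eip74EF 3, the last 1 at a signal value of 704. Eip75B and Hr4, nuclear receptors of the ecdysone response, held 2 each, with highest signal values of 824 and 805. The corepressor gene Smr held 1 at 637. The Ski-family corepressor gene Snoo held 1 at 753, and mam, the Notch coactivator, 1 at 743. The zinc-finger gene shn, which acts in Dpp signalling, held 2, the stronger at 713. Genes of RNA control were pum, a translational repressor, at 899 and shep, an RNA-binding protein, at 720. Tlk, a kinase of chromatin assembly, held 1 at 720, and CG32264 1 at 674. The noncoding gene lncRNA:CR44999 held 1 at 694, whose nearest start site was that of the growth regulator Myc. The median distance of the 20 from a start site was 4082 bp, and in 13 the nearest start site was the host's own.

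Introns of long genes held peaks at a lower density than introns of shorter genes, and at a higher density than intergenic sequence. Eligible sequence, meaning intronic sequence of the long genes that could meet the rule, came to 24.6 Mb, or 18.4% of the 6 arms. It held 41.6 peaks per Mb in the IDR list. Among the 6485 best-ranked peaks of each replicate, 1004, 948 and 948 met the same rule, which gives 40.9, 38.6 and 38.6 per Mb, or 39.3 ± 1.32 (SD, n = 3). Introns of genes under 50 kb held 67.1 ± 3.18 per Mb and intergenic sequence more than 1000 bp from start sites 29.2 ± 0.315. The sequence within 1000 bp of a start site held 90.4 ± 3.27 per Mb. No replicate of 1 class overlapped a replicate of another in these densities. The density in long-gene introns was 0.603 times that in short-gene introns in the IDR list, and 0.577, 0.595 and 0.586 times in replicates 1, 2 and 3. Long-gene and short-gene introns were not compared at equal distance from a start site. With 3 replicates an exact two-sided sign-flip permutation test cannot go below 0.25, and it gave that value for the difference of 27.8 ± 1.89 peaks per Mb (short minus long, n = 3) and for that of 10.2 ± 1.38 (long minus intergenic, n = 3).

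The comparison of densities rests in part on 5 very long genes that held no peak at all. They were Myo81F, Pzl, lovit, CG17684 and DIP-lambda, spanning 1966, 709, 434, 396 and 379 kb. These genes had no entry even among the 30000 of the pooled list, background included. Between 32.2% and 46.6% of their sequence was soft-masked as repeats in the reference, against 26.2% of all eligible sequence, and the part of repeats in their empty state was not tested. The next values were added after seeing the data. Without those 5 genes the eligible sequence was 20.7 Mb, the density 49.3 per Mb and the ratio to short-gene introns 0.714. Counting only sequence that is not soft-masked, it was 56.3 against 86.8 per Mb, a ratio of 0.649. Where the 5 genes were left out, here and below, other long empty genes stayed in. Among them were bru3, Snap25 and l(3)80Fg, with 257, 220 and 210 kb of eligible sequence. Those values are therefore not free of long stretches without a peak.

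**Figure D1:**
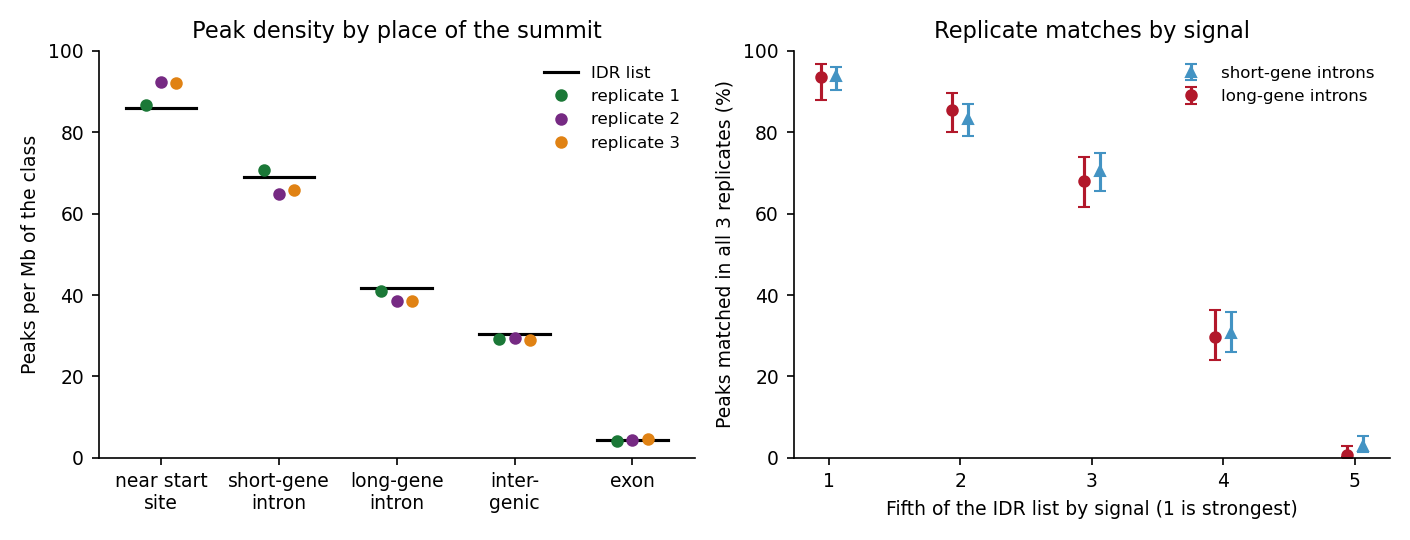
Left, peaks per Mb of each class of sequence, with the IDR list as a bar and the best-ranked peaks of each replicate as points. Right, share of peaks matched in all 3 replicates in long-gene and short-gene introns by 20% step of the strength-ranked IDR list, with Wilson 95% intervals. Long-gene introns sit between short-gene introns and intergenic sequence on the left, and the intervals overlap in every step on the right.

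The intronic peaks of long genes had lower signal values than peaks near start sites or in short-gene introns, and values close to those of intergenic peaks. Their median signal value was 180, with a range of 116 to 2035, against 193 in short-gene introns, 216 near start sites and 175 in intergenic sequence. Of the 1022, 124 were among the strongest 20% of the list, or 12.1% (interval 10.3 to 14.3%), and 254 among the weakest 20%, or 24.9%. In short-gene introns 275 of 1643, or 16.7%, were among the strongest, and near start sites 27.5% (25.9 to 29.3%). Ranked within the replicates, the share in the strongest 20% was 13.1% ± 0.347 in long-gene introns and 16.4% ± 0.356 in short-gene introns (n = 3). It was lower in long-gene introns in each replicate, by 3.28 ± 0.143 percentage points (exact sign-flip permutation p = 0.25, the smallest possible). Read the other way, long-gene introns held 9.56% of the strongest 20% of all peaks and 19.6% of the weakest 20%. Further down the pooled list the ratio of densities, long over short, was nearer to 1, with 0.566 in the first 5000 entries and 0.932 in the last 5000 of 30000.

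A summit within 100 bp was found among the best-ranked peaks of replicates 1, 2 and 3 for 81.7%, 77.3% and 69.2% of the intronic peaks. All 3 replicates matched 509 of them, or 49.8% (46.7 to 52.9%), and none matched 23. In short-gene introns 55.8% (53.4 to 58.2%) were matched in all 3, and in intergenic sequence 49.4%. At equal strength the intervals of long-gene and short-gene introns overlapped. In the strongest 20% of the list 93.5% (87.8 to 96.7%) of the intronic peaks of long genes and 93.8% (90.3 to 96.1%) of those of short genes were matched in all 3. At signal values of 139 to 172 the shares were 29.8%, or 65 of 218, and 30.7%, or 104 of 339. In the weakest 20% they were 0.787% (0.216 to 2.82%) and 2.82% (1.49 to 5.27%). Of the 254 intronic peaks of long genes in that step, 2 were matched in all 3 replicates.

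The peaks were not spread evenly along the genes. Density was highest close to start sites and in the 5′ part of the host. From 1 to 2 kb from a start site it was 70.3 ± 4.28 per Mb over the replicates (n = 3), from 5 to 10 kb 48.2 ± 0.715, and beyond 20 kb 14.6 ± 1.68. Beyond 20 kb the value was 25.5 ± 2.93 without the 5 empty genes named above. With the host divided into 4 equal parts from its 5′ end, these held 48.0 ± 2.36, 42.4 ± 1.41, 39.3 ± 1.32 and 25.5 ± 1.04 per Mb, and 56.6 ± 2.79, 49.6 ± 1.66, 46.2 ± 1.55 and 31.1 ± 1.26 without those genes. The last of the 4 was below the others in both forms by more than the spread between replicates. The median peak lay 6871 bp from the nearest start site, while the median position of eligible sequence lay 11441 bp away. The farthest lay 56460 bp away, in luna, which encodes a Krüppel-like factor. For 561 peaks, or 54.9%, the nearest start site belonged to a host gene. By the length of the exon-free stretch around the summit, density was 30.9 ± 2.63 per Mb in stretches of up to 5 kb, 58.3 ± 2.10 in those of 5 to 10 kb, 41.9 ± 1.83 in those of 10 to 20 kb and 49.5 ± 1.32 in those of 20 to 50 kb (n = 3). In stretches over 50 kb it was 14.3, 14.7 and 12.9 per Mb in replicates 1, 2 and 3, and 46.1, 47.4 and 41.5 without the 5 empty genes. Of the peaks, 38 also lay in an intron of a gene under 50 kb, and 5 lay within 100 bp of an exon. Shares of eligible sequence in such places, or nearest to a start site of the host, are not given here. These counts are therefore not set against what position alone would give.

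Density also went with the length of the host. In genes spanning 50 to 75 kb it was 57.4, 53.3 and 54.4 per Mb in replicates 1, 2 and 3, and in those of 75 to 100 kb 58.4 ± 2.34 (n = 3). It was 38.2 ± 2.24 in those of 100 to 150 kb and 12.5 ± 0.618 in longer ones, or 27.3 ± 1.35 in the longest class without the 5 empty genes. On either side of the 50 kb limit the densities were close. Genes spanning 40 to 50 kb held 283 peaks, at 59.2 per Mb with a median signal value of 192, and genes spanning 50 to 60 kb held 196, at 63.5 per Mb with a median of 171. Within the 250 bp short of the start-site limit lay 41 peaks, at 90.0 per Mb, and within the 250 bp beyond it 34, at 75.7 per Mb. In the last 500 ranks of the IDR list 107 peaks met the rule, with a median signal value of 120, and in the next 500 pooled ranks 88 did, with a median of 114.

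**Figure D2:**
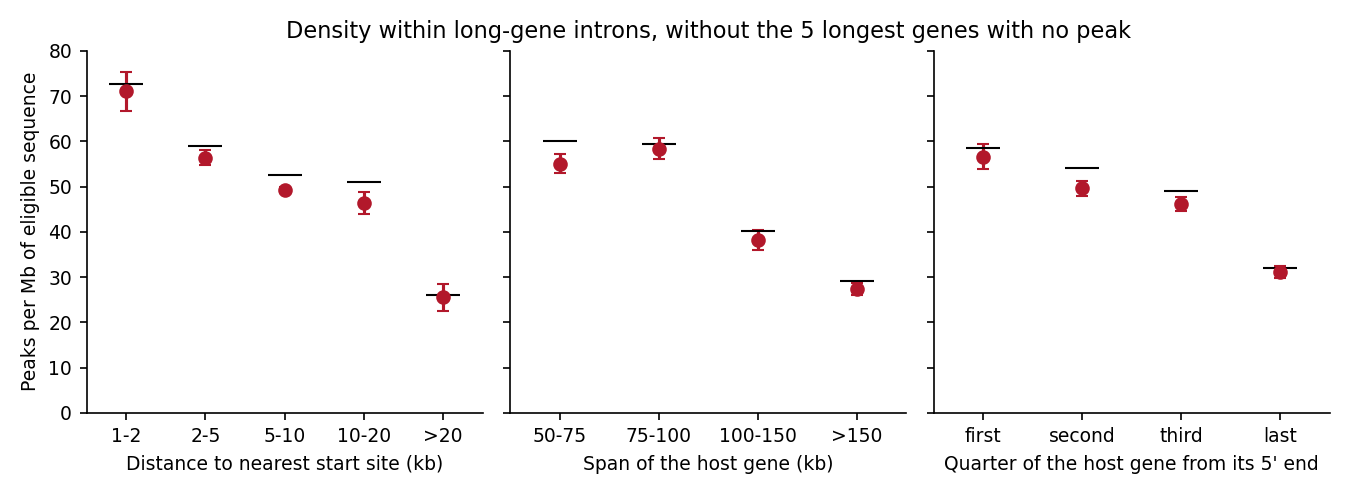
Peaks per Mb of eligible intron sequence by distance to the nearest start site, span of the host gene and place along the host gene in 4 equal parts, without the 5 longest genes that held no peak. Points and error bars are the mean and SD of 3 replicates and short lines the IDR list. Density is 71.0 ± 4.32 at 1 to 2 kb and 25.5 ± 2.93 beyond 20 kb.

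Many intronic peaks lay close to another. Another peak of the same kind lay within 500 bp of 22.0% of them, within 1000 bp of 33.0% and within 5000 bp of 71.4%, and the median distance to the nearest was 1892 bp. In the replicates, 70.1% ± 1.44 had another within 5000 bp (n = 3). The intervals of 215 peaks, or 21.0%, overlapped that of another, and whether these are 1 bound region listed more than once was not tested. With overlapping peaks counted as 1 region there were 912 regions, of which 67.0% had another within 5000 bp, and the density ratio to short-gene introns was 0.612. One peak per 24045 bp would be the average over eligible sequence. By arm the order rested on the empty genes. With all eligible sequence the density was 31.7 ± 1.58 per Mb on 3R and 51.7 ± 3.18 on 2L over the replicates (n = 3). Without the 5 empty genes, of which Myo81F and Pzl lie on 3R, it was 52.8 ± 2.62 on 3R, and the lowest arm that held peaks was X at 39.4 ± 1.28. The only long gene of the small chromosome 4, bt, which encodes the muscle protein projectin, held none.

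Long genes differed widely in how many peaks they held. Of 319 genes of 50 kb or more, 187 (58.6%) held at least 1 intronic peak, and 154 (48.3%) held 1 that was matched in all 3 replicates. Hosts were 180 of 307 protein-coding and 7 of 12 noncoding long genes. In the replicates 186, 180 and 195 genes held a peak, of which 168 did so in all 3, and 111 held none in any of the lists. The median host held 5 peaks. There were 28 hosts with 1 peak, 101 with 5 or more and 36 with 10 or more. The 20 genes with the most held 275 peaks, or 26.9% of all. Over the 319 genes the mean was 3.36 and the variance 18.8. Hosts and empty genes were of similar length, with a median of 59.4 and 55.6 kb of eligible sequence. A peak within 500 bp of a start site was present in 78 hosts, or 41.7% (34.9 to 48.9%), and in 12 of the 132 empty genes, or 9.09% (5.28 to 15.2%). Start-site peaks were not used by the rule. Hosts had a median of 2 annotated start sites and empty genes 1. Among genes with 1 start site such a peak was present in 10 of 51 hosts, or 19.6% (11.0 to 32.5%), and in 2 of 68 empty genes, or 2.94% (0.810 to 10.1%).

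The genes with the most peaks included corepressors and developmental regulators. Snoo, at chr2L:7891187-7984196, held 24 in 82.4 kb of eligible sequence, with 24, 21 and 21 in replicates 1, 2 and 3. The corepressor gene sbb, at chr2R:18278198-18357296, held 23 in 53.1 kb, with 21, 24 and 25. The gene kirre, for an immunoglobulin-family receptor of myoblast fusion at chrX:2740384-3134532, held 18 in 317 kb, with 18, 19 and 17. These counts varied by at most 4 between replicates. The gene heca, a regulator of imaginal cells, held 16, with 15, 14 and 16, and shn held 16, with 18, 16 and 16. The noncoding genes lncRNA:CR44357 and lncRNA:CR44999 held 17 and 15. CG1677 held 14, and since its span lies inside that of lncRNA:CR44357 these are among the 17. In all, 50 of the 1022 lay in more than 1 long gene. CG43658 held 14 and mtgo 13, as did Tet and twi, which fell outside the first 10 by the order of ties. Counts at twi, a basic helix-loop-helix factor of mesoderm, were less steady, with 13, 10 and 6 in the replicates.

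Per length the order was different. The sbb gene held 4.34 peaks per 10 kb of eligible sequence, with 3.96, 4.52 and 4.71 in the replicates, and shn 4.14, with 4.65, 4.14 and 4.14. These do not differ beyond their spread. Snoo followed at 2.91, with 2.91, 2.55 and 2.55. Below it came cic, an HMG-box repressor acting downstream of EGFR, at 2.68, twi at 2.62, and tkv, the type I receptor for Dpp, at 2.50. Hr4 held 2.45, Eip74EF 2.40, Bx, a LIM-only cofactor of wing development, 2.38 and mam 2.30. From Snoo to mam, each gene overlapped the next in its replicate values. For tkv, Hr4 and Bx the IDR value was above that of every replicate, with 1.56, 1.87 and 2.19 at tkv. The 12 peaks of Eip74EF and the 12 of Hr4 included the strong ones above, whereas the strongest of the 10 in Bx had a signal value of 204 and only 1 of them was matched in all 3 replicates.

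**Figure D3:**
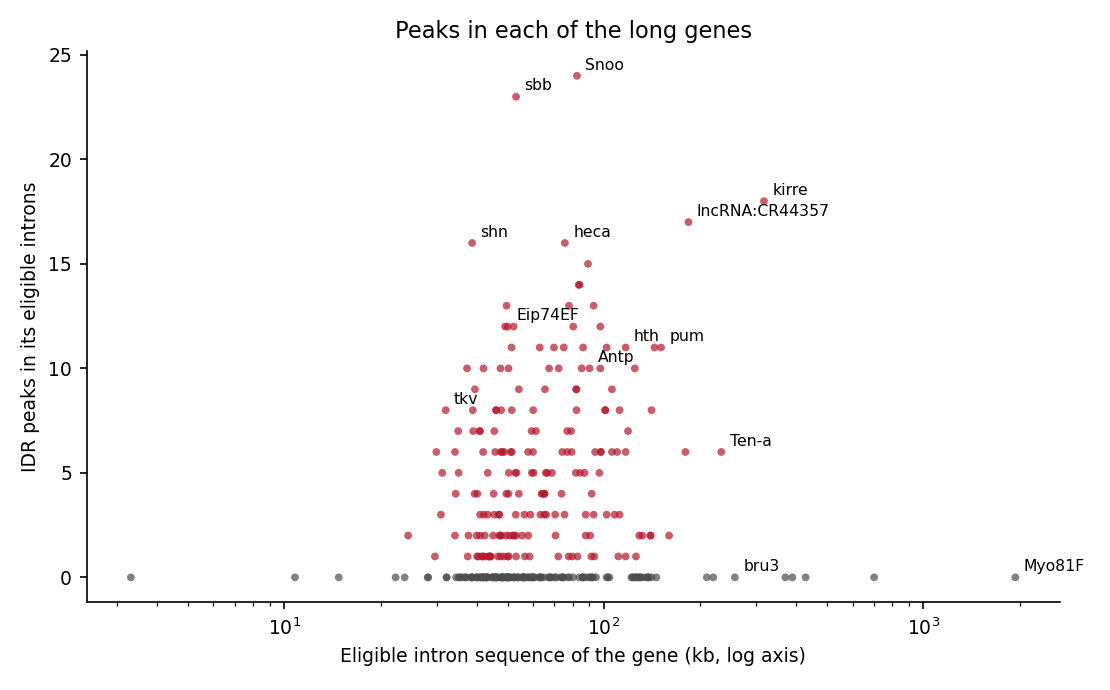
Number of IDR peaks in the eligible introns of each of the 319 long genes against the length of that sequence in kb on a log axis, with some genes named. Hosts are red and the 132 genes without a peak are grey, and hosts run from 24.4 kb of eligible sequence, at hiw, to 317 kb, at kirre. Empty genes lie on both sides of that range, from 3.31 kb, at Muc14A, to 1940 kb, at Myo81F.

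Grouped by function, long genes of developmental transcription factors, the ecdysone response and signalling held peaks at a higher density than all long genes. Long genes of neuronal excitability mostly held none. The 7 lists used were drawn up with earlier results of these peaks known, so the counts describe and do not test. Of 23 developmental transcription factors and cofactors with a span of 50 kb or more, 18 were hosts, or 78.3% (58.1 to 90.3%). That interval covers the 58.6% of all 319. The 23 held 124 ± 3.69 peaks per Mb over the replicates, against 39.8 ± 1.20 for all long genes. In these densities a peak counts once for each long gene holding it. The median member held 8 peaks, against 1 over all long genes. Those with the most were Snoo, sbb, heca and shn. The 5 without a peak were br and chinmo, both zinc-finger factors with a BTB domain, and Ubx, lola and pros, the last 3 named after their values were seen. All but lola held 1 peak in replicate 3 alone. Earlier descriptions of these peaks had named 12 of the 23. Of the other 11, 7 were hosts, or 63.6% (35.4 to 84.8%), an interval that also covers 58.6%. These 11 held 81.6 peaks per Mb in the IDR list, against 41.8 for all long genes.

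Genes of the ecdysone response were close to the whole transcription factor list. Of 8 long ones, 7 were hosts, or 87.5% (52.9 to 97.8%, which covers 58.6%), at 111 ± 8.66 per Mb. Hr4 and Eip74EF held 12 each. Eip75B held 10, and 9, 10 and 12 in the replicates. The gene ftz-f1, a nuclear receptor that makes prepupal tissue competent for ecdysone, held 9, with 6, 7 and 10. The exception was br, which is on both lists. All 10 long genes of signalling were hosts (72.2 to 100%), at 94.4 ± 11.0 per Mb. The Wnt receptor genes fz2 and fz held 12 and 11, with 14, 12 and 11 and with 11, 12 and 12 in the replicates. The gene tkv held 8, and Sema1a, a transmembrane guidance cue, 6.

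RNA-binding genes were hosts in 12 of 14 cases, but at 35.8 ± 2.49 per Mb. Here pum held 11, heph, the polypyrimidine tract-binding protein, 8, shep 8 and the splicing regulator Rbfox1 6. The genes without a peak were bru2, with 1 peak in replicate 1 alone, and bru3, which held none in 257 kb. Of 19 genes of muscle and the cytoskeleton, 14 were hosts, at 23.0 ± 3.38 per Mb. That value rests on Myo81F and its 1940 kb without a peak. Without that gene it was 64.8 ± 9.53 per Mb, above rather than below the value for all long genes, which was 46.8 ± 1.41 without the 5 empty genes. In this group the actin-binding Svil held 11, cv-c 10, the syndecan Sdc 8 and osp 7. The genes bt and Ank2, the latter encoding an ankyrin, held none, in 22.3 and 10.8 kb.

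Of 38 genes of neuronal recognition and adhesion, 18 were hosts, at 24.2 ± 1.30 per Mb, or 27.3 ± 1.47 without the empty DIP-lambda. There kirre held 18 of the 85 peaks in the group. The cell adhesion genes ed and Fas3 held 11 and 8, and the receptor phosphatase Ptp10D held 8, with 7, 6 and 7 in the replicates. The median member held 0, and beat-Ib and beat-VI, guidance molecules of the immunoglobulin family, held none in the IDR list or any replicate. Of 20 genes of ion channels, transmitter receptors and the synapse, 2 were hosts, and the group held 3 peaks in 1.14 Mb. Over the replicates this was 3.52 ± 1.52 per Mb. The cAMP phosphodiesterase gene dnc held 2, with 3, 1 and 3 in the replicates, and nAChRalpha6 held 1, with 2, 0 and 1. The serotonin receptor genes 5-HT1A and 5-HT2B held none in any list. Eligible sequence per gene had a median of 46.2 kb in that group and 59.4 kb among the transcription factors, and the soft-masked share medians of 20.7% and 22.4%. The densities of the transcription factor list, the recognition and adhesion list and the ion channel list lay apart by far more than the spread between replicates. That spread does not measure how far genes within a list differ. Gene by gene the lists overlapped. Transcription factors ran from 0 to 4.34 per 10 kb, recognition and adhesion genes from 0 to 1.74, and ion channel genes from 0 to 0.155. The 189 long genes on no list held 36.4 ± 1.18 per Mb, and 107 of them were hosts.

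**Figure D4:**
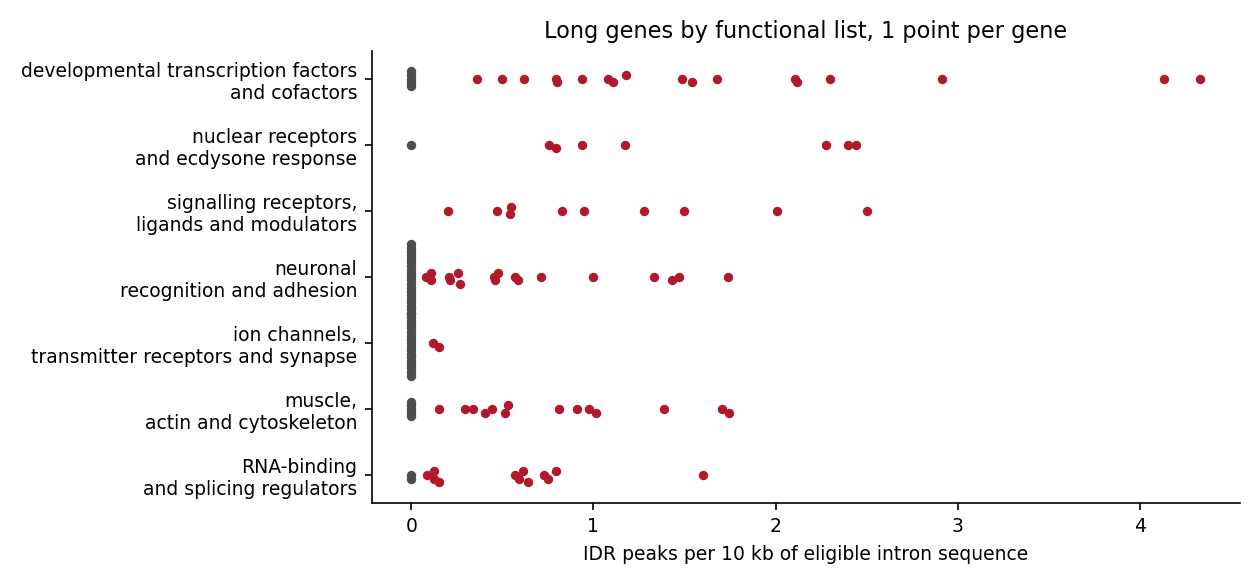
IDR peaks per 10 kb of eligible intron sequence for each long gene of the 7 lists, 1 point per gene, with genes that held none in grey at 0. Transcription factors reach 4.34 per 10 kb, at sbb, while 18 of the 20 genes of ion channels, transmitter receptors and the synapse lie at 0.

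Summits were AT-rich against their surroundings. Within 100 bp of the summit GC content averaged 35.0% in the IDR list. Over the replicates it was 35.5% ± 0.692, against 40.1% ± 0.129 in windows of the same length centred 1000 bp to either side and 40.1% over all eligible sequence. It was lower at the summit than in the flanks in 757 of the 1022 peaks. Summit minus flank was -4.62, -5.16 and -3.98 percentage points in replicates 1, 2 and 3, or -4.59 ± 0.588 (exact sign-flip permutation p = 0.25, n = 3). In short-gene introns it was -5.54 ± 0.564 and near start sites -7.19 ± 0.849. In each replicate the drop was larger in both than in long-gene introns. Summits themselves were close to the 35.0% of long-gene introns in the IDR list. They averaged 34.8% in short-gene introns, 34.7% in intergenic sequence and 35.1% near start sites. Flanks averaged 40.7%, 40.9% and 42.1% in these classes, above those of long-gene introns. The classes thus differed mostly in their flanks, and summits in long-gene introns were not less AT-rich than the others. The mean for long-gene introns was also followed in steps of 50 bp. It went from 32.4% at the summit to 46.1% at 250 bp and 39.1% at 800 bp downstream in coordinates. The GC-rich shoulders stood on both sides, with 46.1% at 300 bp on the other. At the summit 24.5% of bases were soft-masked, against 19.6% in the flanks.

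Of the AT-rich words searched, AATATT and AAAAAAAA were more frequent at summits and TAATTA was not. AATATT lay within 100 bp of 29.6% of summits and in 18.9% of flank windows, and by replicate in 31.0%, 30.5% and 26.7% of summits. A run of AAAAAAAA lay at 25.4% and 16.7%. In windows of the same length tiled over the eligible sequence they were found in 17.9% and 13.8%. The loose Mef2 pattern lay at 28 summits, 2.74% against 2.05% in flanks and 2.64% of tiled windows. Of 31 motifs searched on both strands, 24 were found at 20 or more summits. The GAGA factor word GAGAG, at 22.2% and 21.4%, and the homeodomain core TAATTA, at 15.6% and 15.9%, differed between summit and flank by less than the spread between replicates. At summits near start sites TAATTA was 1.55 times as frequent as in flanks. Some words were rarer at summits in every replicate. These included the Exd and Hth word TGACAG, at 4.70% against 8.32%, and the joint Hox and Exd word TGATTNAT, at 4.79% against 7.05%.

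A search of all 6-base words present at 50 or more summits, made after the data were seen, put GTGCAC first, at 2.58 times its share in flanks, with 2.62, 2.34 and 2.31 in the replicates. The word CAGTGC stood at 2.26. Near the top was also CACTGA, at 2.20, with 2.10, 2.26 and 2.39 in the replicates. The longer word CACTGAGA, which continues CACTGA, lay at 58 of the 1022 summits, 5.68%, against 0.783% of flank windows and 0.664% of tiled windows. By replicate it was at 5.48%, 5.49% and 5.38% of summits, higher than in flanks by 4.69 ± 0.106 percentage points (exact sign-flip permutation p = 0.25, n = 3). The same letters in reverse order lay at 3 summits. The word was not particular to long genes, since it lay at 6.38% of intergenic summits, against 0.638% of their flanks, at 4.14% in short-gene introns, against 0.517%, and at 2.25% near start sites, against 0.461%. The 58 peaks lay in 40 host genes, at most 5 in 1 gene. By 20% step of strength, from the strongest, it lay at 6.45%, 5.80%, 7.31%, 7.34% and 2.36% of summits. It was lowest in the weakest step, at 6 of 254 summits (1.09 to 5.06%), but that interval overlapped those of all other steps. The other steps lay within each other's intervals. Of its 165 matches within 1000 bp of a summit, 61 began within 100 bp. Peaks with the word had a median signal value of 202, and those without 179. Matched in all 3 replicates were 63.8% and 49.0% of them, which were not compared at equal strength. GC content was 34.3% at summits with the word and 35.1% at those without. The word was chosen on these summits. Among 8-base words with 3 or more C or G it had the largest excess over flanks there, ahead of TCAGTGCA. Its share, its difference from flanks and the permutation result are therefore descriptions. Which factor, if any, reads the word is not shown by these data.

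**Figure D5:**
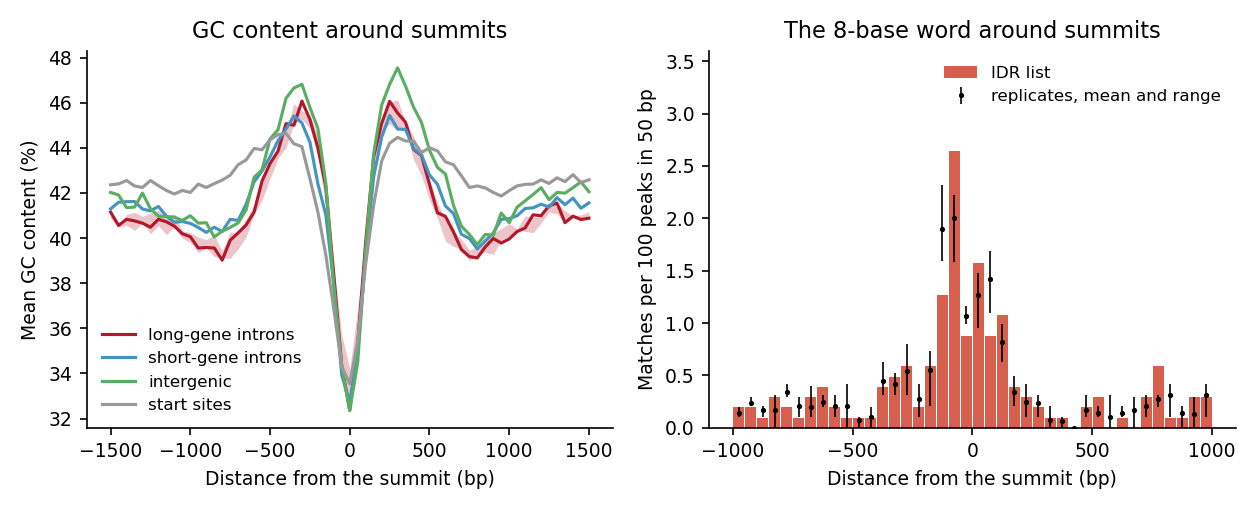
Left, mean GC content in % by distance from the summit for 4 classes of peaks in the IDR list, with the range of the 3 replicates shaded for long-gene introns. Right, matches to the 8-base word CACTGAGA per 100 long-gene intronic peaks in steps of 50 bp, as bars for the IDR list and as points with the replicate range. GC content is 32.4% at the summit of long-gene intronic peaks, and the word reaches 2.64 per 100 peaks in the bin that starts 100 bp to the left of it.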

How the data were processed

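ChIP-seq of GFP-tagged Salr was made in 3 replicate libraries of whole prepupae. Of the deposited files 5 lists on dm6 were used: 1 per replicate, 1 called on pooled replicates and the IDR list. The replicate and pooled lists held 30000 entries each, background included. Per the deposited notes, every list had as parents the read alignments of its own replicates together with 1 control alignment common to all. No aligner or peak caller is stated in the sources used here. The signal value is a score deposited by the authors with no stated scale. The IDR list is the top of the pooled list: 6485 pooled peaks had a score at or above its lowest. Read totals were not used here, so depth is unknown, and the Wilson 95% intervals cover counting error only.

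Summits were placed on the Ensembl release 115 annotation of BDGP 6.54, without transposable elements, and on the Release 6 sequence from RefSeq, the source of every printed sequence, in 1-based coordinates with Python 3.11.15, numpy 2.4.6, pandas 2.3.3 and scipy 1.17.1. Density is peaks divided by the sequence that could meet the same rule. For replicates the 6485 best-ranked peaks were used, and summits within 100 bp were counted as matched. Differences between replicate values were tested by exact two-sided sign-flip permutation. Motifs were searched within 100 bp of summits and in windows 1000 bp to each side. The steps were tested on simulated data. Beyond the IDR list and the 6485 best-ranked peaks no threshold on signal was set, and 0 columns of other samples were left out.

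The intronic peaks, the 7 gene lists with 508 genes, the motifs and the tests were chosen with earlier results of these data known. An older symbol was needed for 4 list genes, and 4 others found no match and are not analysed here. Named genes were the long hosts of the 20 strongest intronic peaks, the 10 genes with most, the 10 densest with 3 or more, up to 4 hosts with most peaks and up to 2 empty genes first in the alphabet per list, and the 5 longest empty genes. Sequences were the 4 strongest, leaving out 1 arm, and the strongest with each of the 3 motifs most frequent against flanks among those at 20 or more summits. Alternatives changed the span, the start-site distance, the genes used, the list, the matching, the windows and the replicates. The search of 6-base words, CACTGAGA, and the densities without the 5 longest empty genes or repeats were added after seeing the data. So were the merged regions, the split by start sites and the shortened transcription factor list.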

Additional observations from a re-analysis of the deposited data

How the results depend on the processing

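Directions held throughout: in none of the alternatives run did the density ratio, the GC difference or the share of AATATT change side. Of 91 recomputed values 60 moved by more than the replicate SD, the interval or 1.5 times, and 31 did not. Where a value moved, the cause was not tested, and the span, distance and list alternatives also change which peaks are counted.

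With a span minimum of 40 kb the share of intronic peaks in long genes was 20.1%, the ratio of densities 0.622 and the share in the strongest 20% 12.9%. With 100 kb they were 5.18%, 0.389 and 12.5%, and 56 long genes were hosts. With summits over 500 bp from a start site they were 17.3%, 0.593 and 12.7%, and with over 2000 bp 13.8%, 0.640 and 11.7%. With protein-coding genes only, the share in the strongest 20% was 12.5%. In the 3242 strongest peaks the share of peaks was 13.6%, the ratio 0.526, the share matched in all replicates 86.1% and the GC difference -6.17 points. Among the 1000 strongest peaks these were 8.80%, 0.431, 93.2% and -7.09 points, with 56 hosts and an AATATT difference of 19.9 points. The ratio was 0.649 on sequence not soft-masked, 0.714 without the 5 longest empty genes and 0.612 with overlapping peaks counted as 1 region. Matched in all replicates were 31.9% within 50 bp, 60.9% within 200 bp, 65.9% by overlapping intervals and 24.7% with 3242 peaks per replicate. Flanks at 500 bp gave -7.74 points of GC and 15.8 points of AATATT, and windows of 50 bp to each side -6.82 points of GC.

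Each replicate in turn was set aside by keeping the IDR peaks matched in both others, and peaks were not called again. Stronger peaks match more often, so this filter also changes which peaks are counted. Among the kept peaks the share was 14.5 to 15.2%, the ratio 0.540 to 0.579 and the share in the strongest 20% 11.3 to 12.0%. The hosts were 163 to 167, the GC difference -6.02 to -5.57 points and the AATATT difference 10.9 to 13.1 points. Of all the intronic peaks, 57.2 to 64.9% were matched in both others. The CACTGAGA difference ran from 1.61 points, in windows of 50 bp to each side, to 7.05 points in the 3242 strongest peaks, with 2.84 points in the 1000 strongest. No paired analysis was possible because the libraries form 1 group, so no replicate number is shared between groups, while the sign-flip tests compare classes of peaks within each replicate. Depth is unknown, so an empty gene is one without a listed peak, not one shown to lack binding.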
